A study of Mus musculus with 11 samples.

Results

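The dermal connective tissue is described here through 30 genes outside the collagen family, taken by symbol from a fixed list and found in all 30 cases among the 24411 genes of the files. They fall into 13 genes of the elastic fibre, 6 proteoglycans, 4 matrix glycoproteins and 7 markers of fibroblasts. The markers comprise Pi16 and Dpt for universal fibroblasts, Dpp4 and Crabp1 for papillary fibroblasts, Dlk1 for reticular fibroblasts, and Thy1 and Fap for fibroblasts in general. In the comparison of the groups 29 of the 30 passed the filter on low counts, and Dlk1 did not.

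Elastic fibres consist of an elastin core laid on a scaffold of fibrillin microfibrils, with fibulins as adaptors and lysyl oxidases as the enzymes that cross-link elastin and collagen. Small leucine-rich proteoglycans such as decorin coat collagen fibrils and set their spacing, while glycoproteins such as tenascin and periostin appear in matrix under repair or inflammation. In skin these proteins come mostly from fibroblasts, which differ with depth: papillary fibroblasts lie under the epidermis, reticular fibroblasts lie deeper, and cells with universal markers occur in the connective tissue of many organs.

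Total RNA of mouse back skin was sequenced in 11 samples, all after topical MC903, also called calcipotriol, an analog of vitamin D that causes a dermatitis used as a model of atopic dermatitis. All samples carry the host strain label Tg(act-EGFP)Y01Osb and an age label of 16-18 without a unit. The hosts had been irradiated with 10 Gy and had received, through the tail vein, sorted cells of the femoral marrow of Pdgfra-Cre;tdTomato donors. The donor cells were tdTomato-positive in 4 samples and tdTomato-negative in 7 samples, and these are the groups called positive and negative from here on. After 6 weeks of recovery MC903 was put on the back skin 6 times, and skin was collected on day 14. Cre under Pdgfra marks cells by past expression of that gene and not by a present cell type, and the dermis of the host, with its own fibroblasts, remained in every sample. No sample without MC903, irradiation or transplant was analysed here. Whether each numbered sample is a separate animal is not said in the labels, so the p-values reflect the spread among these samples, which may be in part technical.

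Expected counts, which are read counts estimated per gene, summed to 7190732 to 9749827 per sample. The labels name no batch. The libraries differed widely in hair: a list of 24 hair follicle genes took 0.0428% to 0.329% of the counts in 5 libraries (positive replicates 1, 2 and 3 and negative replicates 1 and 7) and 1.57% to 4.98% in the other 6. Because this spread crosses the groups unevenly, the main differences below are also given from a hair-adjusted fit, which has the score of the hair list as a covariate. In whole skin, fewer cells of a type and less RNA per cell cannot be told apart.

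Promoter sequence was at hand in the RefSeq table (GRCm38.p6) for 19 of the 30 genes. The 4 upstream stretches below come from Tnc, a strongly varying gene, and from genes with an unadjusted edgeR p under 0.05 in the comparison below. Those shown overlap no GENCODE exon and end within 50 bases of a GENCODE start. Of the genes at that p, Dcn had no entry, and the entries of Dpt, Fbln2 and Mfap2 overlapped exons. Postn is one of the most abundant genes, Crabp1 is among the most variable, and the positive samples of Fbln1 lay close together but for 1. Each holds the 250 bases before the start site in the direction of transcription, and capitals mark a TATA box (TATAAA) or a GC box (GGGCGG, or CCGCCC on the other strand).
Postn, chr3:54360857-54361106, plus strand: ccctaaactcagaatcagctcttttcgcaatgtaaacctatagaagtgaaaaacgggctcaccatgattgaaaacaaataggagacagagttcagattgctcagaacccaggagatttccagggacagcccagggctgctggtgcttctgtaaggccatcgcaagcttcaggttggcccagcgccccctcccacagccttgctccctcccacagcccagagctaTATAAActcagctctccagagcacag
Tnc, chr4:64047016-64047265, minus strand: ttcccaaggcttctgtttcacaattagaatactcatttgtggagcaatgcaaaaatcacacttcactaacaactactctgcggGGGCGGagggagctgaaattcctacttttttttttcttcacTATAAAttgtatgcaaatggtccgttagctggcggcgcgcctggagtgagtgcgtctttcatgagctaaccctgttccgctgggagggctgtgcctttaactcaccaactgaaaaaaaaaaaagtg
Crabp1, chr9:54764498-54764747, plus strand: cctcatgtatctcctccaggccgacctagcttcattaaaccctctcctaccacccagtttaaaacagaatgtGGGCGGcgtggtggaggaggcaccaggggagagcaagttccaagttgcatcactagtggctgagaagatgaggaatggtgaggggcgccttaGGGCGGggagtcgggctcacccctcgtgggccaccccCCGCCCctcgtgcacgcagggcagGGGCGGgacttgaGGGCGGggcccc
Fbln1, chr15:85205699-85205948, plus strand: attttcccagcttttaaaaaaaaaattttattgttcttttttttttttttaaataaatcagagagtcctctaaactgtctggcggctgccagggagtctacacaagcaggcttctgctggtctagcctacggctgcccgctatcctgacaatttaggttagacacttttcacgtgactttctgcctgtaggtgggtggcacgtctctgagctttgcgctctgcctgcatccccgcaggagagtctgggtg
The Postn stretch has a TATA box near its end, the Tnc stretch a GC box and, after it, a TATA box, the Crabp1 stretch 5 GC boxes and no TATA box, and the Fbln1 stretch neither. The table has 26 entries for the 19 genes, as some have several start sites, and counts here are over entries and over the 250 bases before the start. Entries not shown can differ: another Fbln1 entry, chr15:85205758-85206007, has 1 GC box, and another Postn entry, chr3:54359017-54359266, has no TATA box. TATAAA on either strand was in 5 of the 26 entries (of Dpp4, Ogn, Postn and Tnc), or 19.2%, and in 12.4% of all 32851 promoters. GGGCGG was in 14 of the 26 (53.8%) and in 32.7% of all promoters, CCAAT in 4 (15.4%) and 33.8%, and the AP-1 motif TGANTCA in 1 (3.8%, Efemp1) and 6.7%. Entries of 1 gene can overlap, so they are not independent. Capitals of different motifs do not overlap in the stretches shown, and a match describes letters only. The 30 genes lie on 16 chromosomes. Dcn and Lum are next to each other on chromosome 10, with 47.3 kb and 0 protein-coding genes between them, and Dpp4 and Fap lie 88.6 kb apart on chromosome 2, with Gcg between them.

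Levels are given in TPM, a share of all transcripts that is relative to gene length and can be compared between genes. The 30 genes together made up 0.42 ± 0.068% of the TPM in the positive group (SD, n = 4), against 0.317 ± 0.0751% in the negative (SD, n = 7). Their mean levels over the 11 samples covered a wide range: 8 genes had at least 100 TPM, 18 had 10 to 100 TPM, 3 (Fmod, Fap and Fbn2) had 1 to 10 TPM, and Dlk1 was below 1. Sparc, Postn and Dcn had the highest means, at 708, 627 and 514 TPM, and these 3 genes held 52.1% of the summed mean TPM of the 30. Bgn followed at 317, Lum at 173, Dpt at 148, Tnc at 128 and Fn1 at 122 TPM. The levels of Bgn and Lum were further apart than the SD of either group, while Tnc and Fn1 were not. Within the elastic fibre genes the order was Fbln2 (97.7 TPM), Fbn1 (91.5) and Mfap4 (72.8), then Eln (38.4), and Fbn2, the fibrillin known mainly from fetal tissue, was last at 4.24 TPM. Fbn1 exceeded Fbn2 between 15.1-fold and 32.2-fold in every library.

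**Figure D1:**
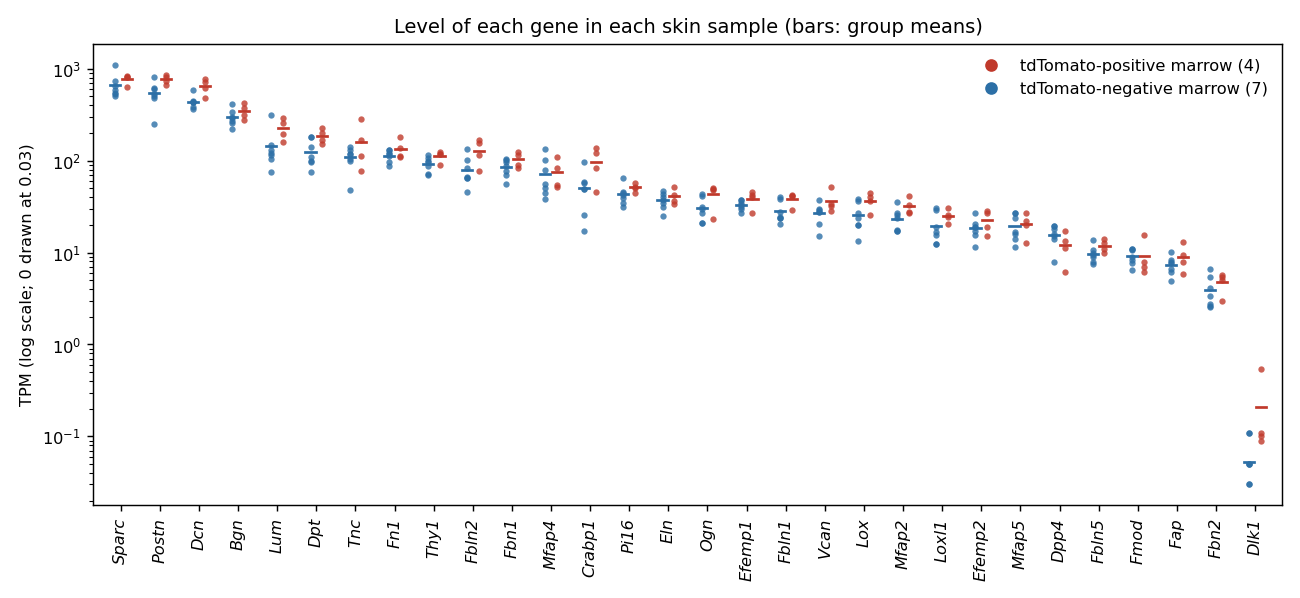
TPM of the 30 genes on a log axis, ordered by mean level, with 1 point per sample and a bar at each group mean (red, positive, 4 samples; blue, negative, 7 samples; a value of 0 is drawn at 0.03). The groups overlap in all 30 genes, and Dlk1 stands alone at the low end with 0 to 0.54 TPM.

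Levels of the matrix genes were on the whole somewhat higher in skin of the positive group, but none of the 29 tested genes passed the test. The edgeR quasi-likelihood test called 0 of the 29 at an adjusted p of 0.05, as it did for 0% of all 14588 genes, and the smallest adjusted p among them was 0.248 (Dcn). The fitted log2 fold change (positive minus negative) was above 0 in 27 of the 29, against 48.6% of all genes, and below 0 in Dpp4 and Fmod. Its median was 0.28 over the 29 and -0.01 over all genes. At an unadjusted p under 0.05 edgeR gave 7 genes, all higher in the positive group (Dcn, Dpt, Fbln2, Fbln1, Crabp1, Postn and Mfap2). That is 24.1% of the 29, where 7.05% of all genes were higher at that p, and 0 of the 29 were lower, where 9.73% of all genes were. Each of the 29 had at least 1 positive sample within the range of the negative samples, while 1.67% of all genes had groups that did not overlap.

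The other tools differed in how many genes they called. DESeq2 called 0 of the 29 (0.658% of the genes for which it gave an adjusted p) and put 10 at an unadjusted p under 0.05, all higher, where it put 8.18% of all genes. Limma-voom called 0 (0% of all genes) and put 9 at an unadjusted p under 0.05, all higher, where it put 7.06% of all genes. Limma-voom with sample quality weights, which gave the libraries weights from 0.45 to 2.35, called 9 of the 29 as higher (Crabp1, Dcn, Dpt, Fbln1, Fbln2, Lox, Loxl1, Lum and Postn), where it called 6.73% of all genes as higher. In the hair-adjusted fit edgeR called 0 of the 29 (0% of all genes), the median was 0.19, and 1 gene, Dcn, had an unadjusted p under 0.05, where 3.09% of all genes did so in the higher direction. The number of genes at an unadjusted p under 0.05 with edgeR, 7 with all libraries, depended on single libraries. It was 1 (3.85% of all genes were higher at that p) without positive replicate 1, 3 (4.02%) without positive replicate 2 and 12 (8.92%) without positive replicate 3. Without negative replicate 1 there were 13 higher (10.6%) and 1 lower, Dpp4 (12%). Leaving out negative replicate 2 or 6 gave 4 each (6.07% and 5.13%), and leaving out negative replicate 7 gave 11 (10.9%). Dcn was among them each time. The median without positive replicate 1 was 0.19.

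**Figure D2:**
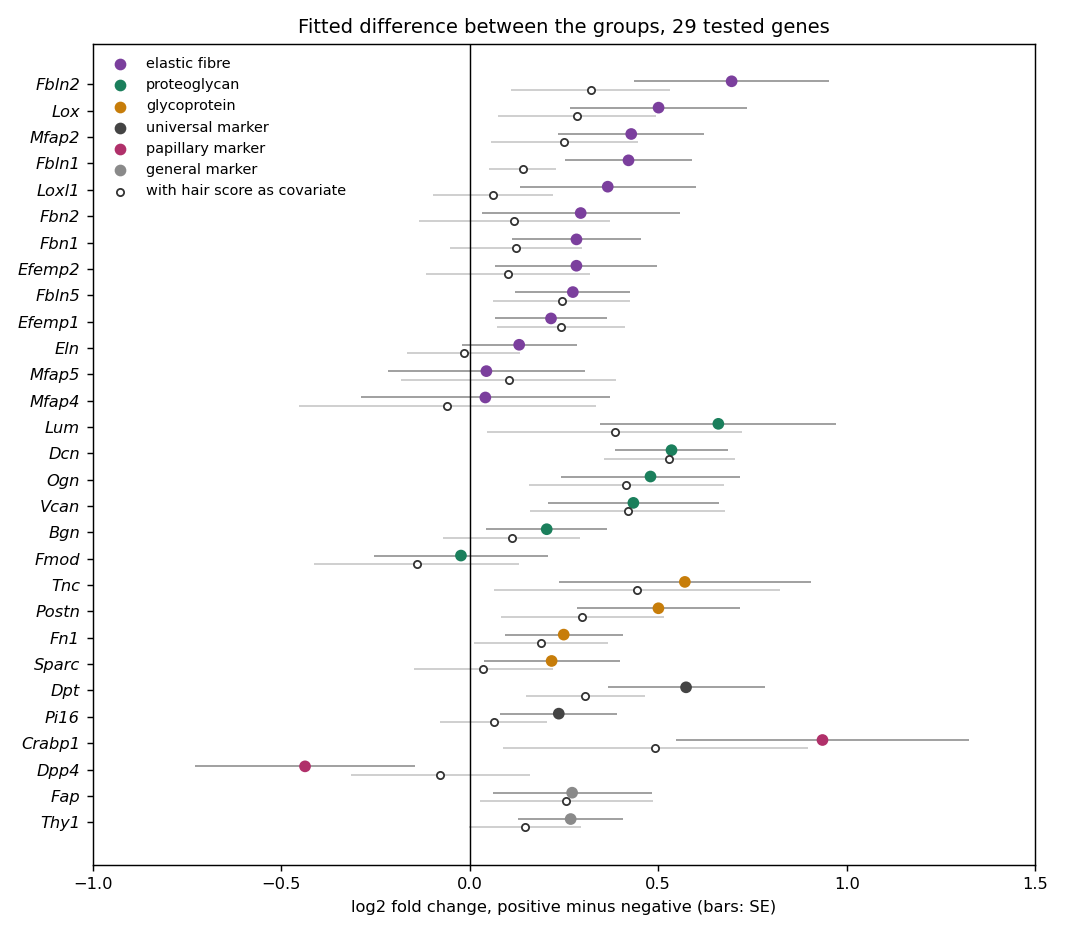
Fitted log2 fold change (positive minus negative) of the 29 tested genes with its standard error, grouped by role (filled points), and the same from the hair-adjusted fit (open points). Filled points lie above 0 for 27 genes, and for the elastic fibre genes with the highest values the open points lie closer to 0.

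All 13 elastic fibre genes had a fitted value above 0, with a median log2 fold change of 0.28 and a range from 0.04 (Mfap4) to 0.69 (Fbln2), and edgeR called 0 of them. Their summed level was 578 ± 90.7 TPM (SD, n = 4) in positive and 455 ± 102 TPM (SD, n = 7) in negative samples. The hair-adjusted median was 0.12.

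Fbln2, which encodes fibulin-2, an adaptor between microfibrils, elastin and basement membrane, had the largest fitted difference of the 13. It stood at 166, 154, 117 and 77.3 TPM in positive replicates 1 to 4, and at 45.3, 66.7 and 133 TPM as the lowest, median and highest of the negative samples. Positive replicates 1 and 2 lay above every negative sample, and positive replicate 4 lay among them. The fitted log2 fold change of 0.69 ± 0.26 (SE, edgeR adjusted p = 0.254) was 0.32 ± 0.21 in the hair-adjusted fit.

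Fbln1, the related fibulin-1, was at 41.4, 41.8, 41.1 and 28.8 TPM in the positive samples and at 20.7, 24.3 and 40.1 TPM (lowest, median, highest) in the negative ones. The first 3 positive replicates lay just above the highest negative sample, and the fourth lay closer to the negative median. Its log2 fold change was 0.42 ± 0.17 (SE, edgeR adjusted p = 0.264), and 0.14 ± 0.09 in the hair-adjusted fit. Mfap2, a microfibril-associated glycoprotein, had 32.2 ± 6.43 TPM against 23.5 ± 6.87 TPM and a log2 fold change of 0.43 ± 0.19 (SE), or 0.25 in the hair-adjusted fit. It was highest in positive replicate 3, at 41.0 TPM.

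The lysyl oxidase Lox had 36.6 ± 8.19 TPM (SD, n = 4) against 25.5 ± 9.10 TPM (SD, n = 7), or 0.50 ± 0.23 (SE) as a log2 fold change, and 0.28 after adjustment for hair. Loxl1, the family member tied most closely to elastin, had 25.1 ± 4.12 against 19.5 ± 7.63 TPM and a log2 fold change of 0.37 ± 0.23, which was 0.06 in the hair-adjusted fit and 0.24 without positive replicate 1. Its highest value was in a negative sample, replicate 7, at 30.8 TPM. Neither gene had an unadjusted p under 0.05 with edgeR.

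Eln, the gene of elastin itself, ranged from 33.9 to 51.5 TPM in the positive and from 25.0 to 47.3 TPM in the negative samples. Its log2 fold change was 0.13 ± 0.15 (SE), and -0.02 in the hair-adjusted fit. The fibrillin genes had fitted values of 0.28 (Fbn1) and 0.29 (Fbn2), the fibulin-like genes Efemp1 and Efemp2 of 0.22 and 0.28, and Fbln5, needed for elastic fibre assembly, of 0.27. Efemp1 varied least of the 29 over all samples, with a coefficient of variation of 17.3%. In the hair-adjusted fit the values of Fbn1, Fbn2 and Efemp2 were 0.12, 0.12 and 0.10, and those of Efemp1 and Fbln5 were 0.24 and 0.24. Without positive replicate 1 the values of Fbn1, Fbn2 and Efemp2 were 0.16, 0.18 and 0.13, and that of Fbln5 was 0.17. Without positive replicate 3 they were 0.49 for Fbn2, 0.46 for Efemp2 and 0.37 for Efemp1, and the value of Efemp1 was 0.12 without positive replicate 2. For Eln it was 0.04 without positive replicate 3 and 0.22 without positive replicate 4.

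Mfap4 and Mfap5, both microfibril-associated proteins, had fitted values of 0.04 with standard errors of 0.33 and 0.26, and their sign turned when single libraries were left out. They differed in which samples were high. Mfap4 reached 132 TPM in negative replicate 1 and 111 TPM in positive replicate 3, while Mfap5 was at 11.6 and 12.8 TPM in those libraries, its lowest values of all 11. The ratio of Mfap4 to Mfap5 in TPM was 11.4 and 8.66 there, and 1.65 to 5.97 in the other 9 libraries.

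Of the 6 proteoglycan genes, 5 had a fitted value above 0 and Fmod had -0.02, the median log2 fold change was 0.46, and edgeR called 0. The summed level was 1306 ± 252 TPM (SD, n = 4) against 949 ± 217 TPM (SD, n = 7). In the hair-adjusted fit the median was 0.40.

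Dcn, the gene of decorin, which binds collagen fibrils and also transforming growth factor beta, had the smallest p of the 29. It stood at 769, 713, 481 and 615 TPM in positive replicates 1 to 4, and at 361, 431 and 592 TPM (lowest, median, highest) in the negative samples. Positive replicates 1, 2 and 4 lay above all negative samples, and positive replicate 3 lay above all of them except negative replicate 1. On the log2 scale the difference was 0.53 ± 0.15 (SE), or 1.45-fold, with an edgeR p of 0.00369 before and 0.248 after adjustment. It was 0.53 ± 0.17 in the hair-adjusted fit and 0.42 to 0.67 when single libraries were left out.

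Lum, the neighbouring gene on chromosome 10, encodes lumican, a regulator of fibril diameter. It had 294, 256, 193 and 159 TPM in the positive samples and 75.01, 120 and 312 TPM (lowest, median, highest) in the negative ones. The highest value of all 11 libraries was that of negative replicate 1, and the other negative samples stayed at or under 147 TPM, below every positive sample. For Lum the log2 fold change was 0.66 ± 0.31 (SE, edgeR adjusted p = 0.309), and 0.38 ± 0.34 in the hair-adjusted fit. The ratio of Lum to Dcn in TPM was 0.259 to 0.402 in the positive and 0.208 to 0.527 in the negative samples, so it overlapped between the groups.

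Bgn, the gene of biglycan, was at 423, 376, 316 and 275 TPM in the positive and at 220, 293 and 417 TPM (lowest, median, highest) in the negative samples. Positive replicate 4 lay under the negative median, and the log2 fold change was 0.20 ± 0.16 (SE), or 0.11 after adjustment for hair, 0.08 without positive replicate 1 and 0.31 without positive replicate 4. Ogn, which encodes osteoglycin, ranged from 23.2 to 50.9 TPM in the positive and from 20.9 to 43.7 TPM in the negative group. For Ogn the log2 fold change was 0.48 ± 0.24, and 0.41 in the hair-adjusted fit. Vcan, the gene of the large hyaluronan-binding proteoglycan versican, ranged from 28.0 to 51.4 and from 15.03 to 37.8 TPM. For Vcan the log2 fold change was 0.43 ± 0.23, or 0.42 in the hair-adjusted fit, and 0.19 without positive replicate 1. Fmod, which encodes fibromodulin, ranged from 6.14 to 15.5 and from 6.50 to 10.9 TPM. Its highest and lowest value were both in positive samples, replicates 3 and 4. Its log2 fold change of -0.02 ± 0.23 turned positive in 6 of the fits that left out 1 library, and was highest without positive replicate 4 (0.13).

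All 4 glycoprotein genes had fitted values above 0, with a median log2 fold change of 0.37, and edgeR called 0. Their summed level was 1849 ± 271 TPM (SD, n = 4) against 1434 ± 380 TPM (SD, n = 7), and the median in the hair-adjusted fit was 0.24.

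Postn, the gene of periostin, a matricellular protein known to be raised in atopic skin, had 860, 819, 740 and 672 TPM in positive replicates 1 to 4. In the negative group its lowest, median and highest values were 250, 525 and 821 TPM. All positive samples lay above 6 of the 7 negative ones, and negative replicate 1 lay within the positive range. The log2 fold change was 0.50 ± 0.22 (SE, edgeR adjusted p = 0.283), and 0.30 ± 0.22 in the hair-adjusted fit.

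Tnc, the gene of tenascin-C, varied strongly within the positive group, at 284, 170, 78.2 and 111 TPM. The negative samples had 48.6, 118 and 142 TPM as the lowest, median and highest values. Positive replicates 1 and 2 lay above all negative samples, and replicates 3 and 4 lay below the negative median. Its log2 fold change was 0.57 ± 0.33 (SE, edgeR adjusted p = 0.389), or 0.44 ± 0.38 in the hair-adjusted fit, and 0.12 without positive replicate 1.

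Sparc, the collagen-binding glycoprotein osteonectin and the most abundant of the 30, had 843, 818, 821 and 638 TPM in the positive samples. Its lowest, median and highest values in the negative group were 511, 595 and 1101 TPM. The highest value was again that of negative replicate 1, and all positive samples lay above the negative median. Fn1, fibronectin, ranged from 109 to 181 TPM and from 87.6 to 130 TPM. The log2 fold changes were 0.22 ± 0.18 for Sparc and 0.25 ± 0.16 for Fn1. They were 0.04 for Sparc and 0.19 for Fn1 in the hair-adjusted fit, 0.38 for Sparc without negative replicate 1, and 0.05 for Fn1 without positive replicate 1.

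Of the 6 tested fibroblast markers 5 had a fitted value above 0 and Dpp4 had one below, and edgeR called 0. Among the universal markers, Dpt, which encodes the matrix protein dermatopontin, had 228, 200, 169 and 152 TPM in the positive samples. The negative samples had 74.98, 110 and 179 TPM (lowest, median, highest). Positive replicates 1 and 2 lay above every negative sample, and replicates 3 and 4 lay above 5 of the 7. For Dpt the log2 fold change was 0.57 ± 0.21 (SE, edgeR adjusted p = 0.254), and 0.31 ± 0.16 in the hair-adjusted fit.

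Pi16, a peptidase inhibitor of adventitial fibroblasts, was at 52.3, 57.8, 50.7 and 44.6 TPM in the positive samples, the narrowest spread relative to the mean among the markers there. The negative samples had 31.4, 42.0 and 64.9 TPM (lowest, median, highest). The highest value belonged to negative replicate 7, and all positive samples lay above the negative median. The log2 fold change was 0.24 ± 0.16 (SE), and 0.06 in the hair-adjusted fit.

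Of the papillary markers, Crabp1 had a fitted value above 0 and Dpp4 one below, and neither passed the test. Crabp1, a retinoic acid binding protein that also marks fibroblasts of the upper dermis, had the largest fold change of the 29. It was at 138, 120, 82.9 and 45.5 TPM in positive replicates 1 to 4, and at 17.2, 49.6 and 97.1 TPM (lowest, median, highest) in the negative samples. Positive replicates 1 and 2 lay above all negative samples, while replicate 4 lay below the negative median. For Crabp1 the log2 fold change was 0.94 ± 0.39 (SE, edgeR adjusted p = 0.270), and 0.49 ± 0.40 in the hair-adjusted fit.

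Dpp4, the cell surface peptidase CD26, had 13.3, 11.1, 6.18 and 17.3 TPM in the positive samples and 7.82, 15.9 and 19.5 TPM (lowest, median, highest) in the negative ones. Its lowest values were those of positive replicate 3 and negative replicate 1. For Dpp4 the log2 fold change was -0.44 ± 0.29 (SE, edgeR adjusted p = 0.443), -0.08 ± 0.24 in the hair-adjusted fit and 0.00381 with the adipocyte score as a covariate. Without positive replicate 3 it was -0.21. Fap, its neighbour on chromosome 2 and a related peptidase of activated fibroblasts, had a fitted value of 0.27 ± 0.21, and 0.26 in the hair-adjusted fit. Its value rested in part on single libraries, at 0.06 without positive replicate 4 and 0.45 without positive replicate 3. The ratio of Fap to Dpp4 in TPM was 0.702 to 0.95 in the positive samples. It was 0.252 to 0.446 in negative replicates 2 to 6 and 1.06 and 0.724 in negative replicates 1 and 7, so the groups overlapped.

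Dlk1, a Notch-family ligand that marks the reticular lineage in developing skin, was close to the limit of detection in every library but 1. Its expected counts were 11, 2, 2 and 2 in the positive samples, or 0.54, 0.10, 0.09 and 0.11 TPM, and 0 to 2 in the negative samples, at most 0.11 TPM. A floor of 3 counts in a library stands for 0.129 to 0.167 TPM, so Dlk1 exceeded it only in positive replicate 1. Thy1, a surface glycoprotein of fibroblasts that also occurs on lymphocytes and nerve, ranged from 89.4 to 125 TPM in the positive and from 69.7 to 116 TPM in the negative group. For Thy1 the log2 fold change was 0.27 ± 0.14 (SE), and 0.15 in the hair-adjusted fit.

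**Figure D3:**
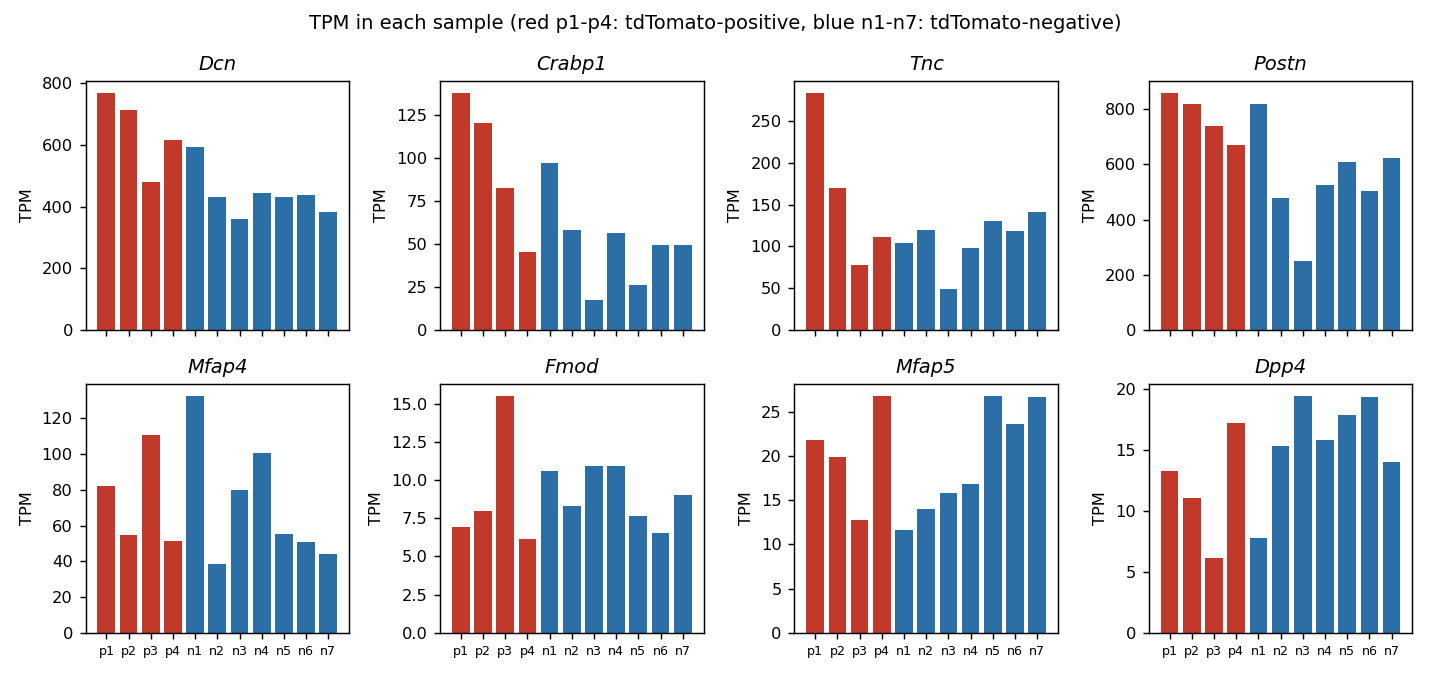
TPM of 8 genes in every sample on linear axes that start at 0 (red p1 to p4, positive replicates; blue n1 to n7, negative replicates). Dcn, Crabp1, Tnc and Postn are high in p1 and p2, while in p3 and n1 Mfap4 is high and Mfap5 and Dpp4 are low, and Fmod is highest in p3.

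The share of the 29 genes above their own mean differed between libraries, from nearly all in positive replicates 1 and 2 to few in negative replicates 2, 3 and 4, with mixed values in the others. Counts above the mean are in log2 CPM (counts scaled to a common library total), and counts of highest or lowest values are in TPM. Positive replicate 1 had 27 of them above their own mean over the 11 samples, and 13 had their highest TPM there. Positive replicate 2 had 25 above the mean, positive replicate 3 had 15 and positive replicate 4 had 12. In the negative group replicate 1 had 20 and replicate 7 had 17, replicates 5 and 6 had 13 and 11, and replicates 4, 3 and 2 had 7, 4 and 3. Negative replicate 3 held the lowest TPM of 17 genes. So the 4 positive libraries did not form 1 level, and 2 of the negative libraries stood above positive replicates 3 and 4.

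The same libraries differed in hair. Hair list genes took 0.329%, 0.0611%, 0.104% and 1.57% of the counts in positive replicates 1 to 4. In the negative group they took 0.293% in replicate 1 and 0.0428% in replicate 7, and 2.75% to 4.98% in replicates 2 to 6. The 5 libraries with little hair had 15 to 27 of the 29 genes above their mean, and the other 6 had 3 to 13. Dpp4 went the other way, at 6.18 to 14.05 TPM in the 5 libraries with little hair and 15.3 to 19.5 TPM in the other 6. Dcn followed this split only in part. Among the negative samples it was highest in replicate 1, at 592 TPM, but lowest but 1 in replicate 7, the library with the least hair, at 384 TPM. Positive replicate 4, with more hair, had 615 TPM of Dcn. Lum and Mfap4 were likewise lowest but 1 of the negative group in replicate 7, at 104 and 44.0 TPM. The libraries also split by a second pattern, in which positive replicate 3 and negative replicate 1 had the highest Mfap4 and Mfap2 and the lowest Mfap5, Efemp1 and Dpp4 of their group. The part of tissue makeup in these patterns was not tested.

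**Figure D4:**
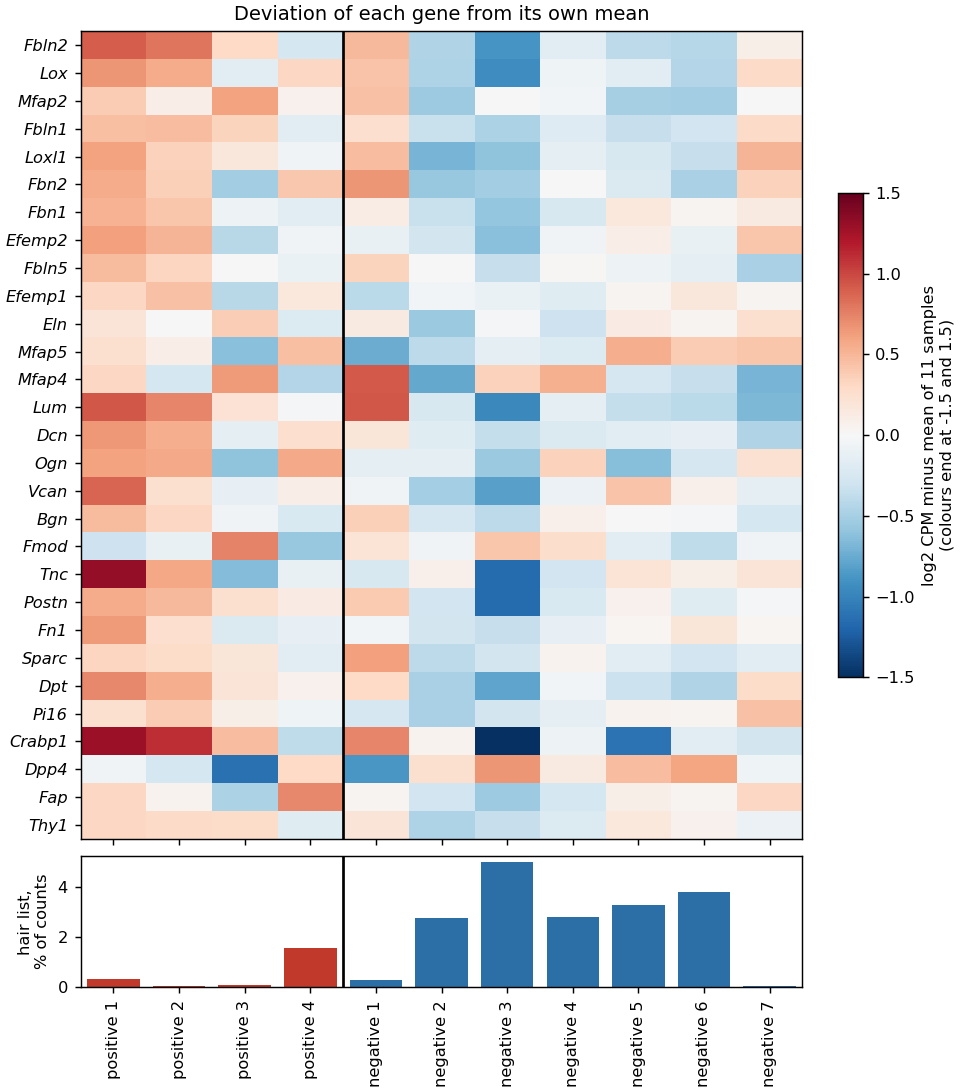
Top, log2 CPM of each of the 29 genes minus its mean over the 11 samples (red above, blue below; colours end at -1.5 and 1.5). Bottom, percent of counts from the 24 hair list genes in the same samples. The libraries with the most genes above their mean, positive replicates 1 and 2, have 0.329% and 0.0611% hair. Negative replicate 3, which has the lowest TPM (not the CPM drawn here) of 17 genes, has 4.98%.

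Other genes of the same systems were taken from lists that hold 100 symbols, of which 89 could be tested. Of the 89, 68 had a fitted value above 0, the median log2 fold change was 0.23, edgeR called 0, and at an unadjusted p under 0.05 there were 19 higher (21.3%, where 7.05% of all genes were) and 3 lower (9.73% of all genes were). For each list the genes with the smallest p are named. In the elastic fibre list 9 of 14 were above 0, but the smallest p belonged to genes that were lower. Ltbp3 and Ltbp4, latent binding proteins that hold transforming growth factor beta in microfibrils, had 21.7 ± 4.29 TPM (SD, n = 4) against 32.2 ± 5.24 TPM (SD, n = 7) and 30.1 ± 8.45 against 47.4 ± 12.1 TPM. Their log2 fold changes were -0.61 ± 0.16 and -0.70 ± 0.22 (SE, edgeR adjusted p = 0.248 for both), or -0.35 and -0.45 in the hair-adjusted fit. In CPM (counts scaled to a common library total) the groups did not overlap for Ltbp4, as for 1.67% of all genes. In TPM they overlapped slightly, with 38.5 as the highest positive and 38.3 as the lowest negative value. The 13 elastic fibre genes described above had fitted values of the opposite sign to these binding proteins.

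Of the other proteoglycan genes 9 of 12 were above 0, with Prelp at 0.28 ± 0.12 and Podn at 0.39 ± 0.19 on the log2 scale. Of the other glycoproteins 18 of 19 were above 0, with the basement membrane gene Nid2 at 0.39 ± 0.15 and Tgfbi at 0.44 ± 0.20. The other universal markers were above 0 in 6 of 6, with 4 higher at an unadjusted p under 0.05 (66.7%, where 7.05% of all genes were), among them Ly6a, the gene of Sca-1, at 0.55 ± 0.19 and Ly6c1 at 0.37 ± 0.14, which are also known from endothelium and blood cells. General fibroblast genes were above 0 in 11 of 12, with 5 higher at an unadjusted p under 0.05 (41.7%, against the same 7.05%). The mesenchymal transcription factors Prrx1 and Twist2 had log2 fold changes of 0.69 ± 0.19 and 0.84 ± 0.25, or 0.51 and 0.53 in the hair-adjusted fit.

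The other papillary genes were split, with 4 of 8 above 0 and a median of -0.09. Col23a1, a transmembrane collagen, was at 0.72 ± 0.28, and Lef1, a Wnt effector that the hair list also holds, was at -1.36 ± 0.64, or -0.21 in the hair-adjusted fit. Of the other reticular genes 3 of 4 were above 0, with Cd36 at 0.47 ± 0.14 and Gpx3 at 0.67 ± 0.32, and Cd36 is also a gene of adipocytes and macrophages. In the transforming growth factor beta list 8 of 14 were above 0, with a median of 0.17. Smad7, an inhibitor of the pathway whose expression the pathway induces, was at -0.79 ± 0.33, or -0.18 in the hair-adjusted fit, and the coreceptor Tgfbr3 at 0.30 ± 0.13.

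Markers of several other cell types also had fitted values above 0. At an unadjusted p under 0.05 with edgeR, 10 of 13 macrophage genes (76.9%), 7 of 12 endothelial genes (58.3%) and 6 of 14 adipocyte genes (42.9%) were higher, against 24.1% of the 29 genes and 7.05% of all genes. The median log2 fold changes of these lists were 0.59, 0.38 and 0.39, against 0.28 for the 29. Of the macrophage list 13 of 13 genes were above 0, with a summed level of 915 to 2393 CPM in the positive and 784 to 1306 CPM in the negative samples. For endothelium it was 12 of 12, with 366 to 501 against 275 to 482 CPM, for adipocytes 13 of 14, with 1533 to 2391 against 1289 to 1803 CPM, and for skeletal muscle 19 of 19, with 9872 to 19640 against 6296 to 22540 CPM. Pericyte and smooth muscle genes were above 0 in 6 of 9, with 584 to 1069 against 515 to 1032 CPM, and epidermal genes in 7 of 9, with 22880 to 38360 against 12440 to 43010 CPM. Dermal papilla genes, which mark the fibroblasts at the base of hair, were above 0 in 3 of 8, with 83.2 to 124 against 86.6 to 125 CPM. Hair genes were below 0 in 24 of 24, with 599 to 15370 against 434 to 50610 CPM, and melanocyte genes in 7 of 7, with 14.5 to 46.9 against 42.8 to 161 CPM. At an unadjusted p under 0.05 with edgeR, 4 of the 24 hair genes and 7 of the 7 melanocyte genes were lower, where 9.73% of all genes were. The median log2 fold changes were -2.32 for hair and -1.58 for melanocytes. In the hair-adjusted fit they were 0.05 and -0.84. Schwann cell genes were above 0 in 5 of 7, with 175 to 189 against 128 to 212 CPM, tendon and cartilage genes in 2 of 3, with 13.7 to 18.8 against 7.45 to 21.5 CPM, and erythroid genes in 3 of 6, with 23.6 to 145 against 17.6 to 116 CPM. Beyond the covariate fits with hair, muscle and adipocyte scores, their part in the results was not tested.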

How the data were processed

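Total RNA of 11 back skin samples was sequenced after removal of ribosomal RNA on a NextSeq2000, per the labels' protocols. RSEM, Trim Galore, bcl2fastq and build GRCm38 stand in the submitters' processing notes. Versions, aligner and strandedness were not given in the sources used here. Expected counts, deposited by the authors, are RSEM estimates that are not normalized, and 7.93% to 8.52% of genes per sample lay more than 0.005 from a whole number. The TPM deposited by the authors are relative to effective length and are shares of 1 library. The effective lengths deposited by the authors, another value per gene, served as offsets in an alternative. FPKM were not used.

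Expected counts were rounded. Of 24411 genes, 14588 passed filterByExpr (minimum count 10, minimum total 15). The test was glmQLFit in legacy mode and glmQLFTest of edgeR 4.0.16 in R 4.3.3, with TMM factors, group as the only term, and Benjamini-Hochberg adjustment over all tested genes at 0.05. The analysis scripts were tested on simulated data. Alternatives used DESeq2 1.42.0, which left 1981 adjusted p as NA, limma 3.58.1, other scalings and filters, log2(TPM + 1) with limma-trend, covariates, and each library left out. Errors are SD over samples or SE of the fit. Floors of 3 counts cover counting error only. Total counts ranged from 7190732 to 9749827. No library was a copy of another, with a chi-square per degree of freedom of at least 3.57 over pairs.

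The 30 genes, the lists and the named-gene rule were chosen with earlier results of these data known. The 4 positive values and the lowest, median and highest of the 7 negative ones were given for the 6 genes with the smallest p, the 4 with the highest mean TPM, the 4 with the largest coefficient of variation, and Pi16, Dpt, Dpp4, Crabp1 and Dlk1, and for each related list the genes with the smallest p were named. Ratios between genes, the promoters shown and values of other genes were chosen after values were seen. Exons of Efemp2, Fn1 and Mfap4 overlap those of Mus81, Apol7d and Mapk7 on the opposite strand in GENCODE, so with the strand setting unknown their counts are uncertain. Of the listed symbols of other genes, 6 were not found.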

Additional observations from a re-analysis of the deposited data

Results flagged for a closer look

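Of 86 sets of values, 8 had 1 sample far from the others by Dixon's 95% criterion, where chance gives about 4, or 1 in 20. A set held the values of 1 group for a gene, for the summed share of these genes, or for the summed CPM of a cell type list. All 8 were sets of a gene. Negative replicate 1 stood above the other 6 negative samples in 3 genes. It had 592 TPM of Dcn against at most 443, 312 TPM of Lum against at most 147, and 1101 TPM of Sparc against at most 739. In negative replicate 7 Pi16 stood at 64.9 TPM against 31.4 to 45.6 TPM in the others.

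In the positive group replicate 4 lay below the other 3 for Fbln1, at 28.8 TPM against 41.1 to 41.8, and for Sparc, at 638 TPM against 818 to 843. Ogn was at 23.2 TPM in positive replicate 3 against 48.2 to 50.9 in the others. Dlk1 was at 0.54 TPM in positive replicate 1 against 0.09 to 0.11, which rests on 11 counts.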

How the results depend on the processing

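With 0 genes called among the 29, the alternatives bear on counts at an unadjusted p and on single values. Limma-voom with sample quality weights called 9 and put 20 at an unadjusted p under 0.05 (19 higher, 1 lower, where 16.8% of all genes were higher), against 7 with edgeR. That count was 1 with the hair score, 4 with the muscle score (4.58% of all genes) and 14 with the replicate block (8.33%). In the block fit negative replicates 5 to 7 had no positive sample of the same number. With the adipocyte score it was 5 (Dcn, Efemp1, Fn1, Tnc and Vcan), and the share of all genes was not worked out for that fit. Leaving out 1 library gave 0 called each time. At an unadjusted p under 0.05 with edgeR it gave from 1, without positive replicate 1 (3.85% of all genes were higher), to 14, without negative replicate 1. Those 14 were 13 higher (10.6% of all genes) and 1 lower (12%). The count was 5, 6 and 5, all higher, without negative replicates 3, 4 and 5 (5.36%, 5.28% and 5.25%). Without positive replicate 4 it was 10, all higher (8.49%). Whether the replicate numbers pair the samples was not settled. Correlations of same-numbered samples were -0.0417, -0.14, -0.0538 and 0.338, and 0 of 4 matched their own number best. With 4 pairs, in libraries that differ widely in hair, these values cannot show that the samples are unpaired. The sign of 5 genes turned in some alternative. Fmod was 0.0148 with upper quartile factors and 0.00124 with library totals. Eln was -0.0162 with the hair, -0.0444 with the muscle and -0.0426 with the adipocyte score. Mfap4 was -0.060, -0.0852 and -0.256 with these scores and -0.198 with the replicate block. Mfap5 was -0.0217 with the muscle score, and Dpp4 was 0.00381 with the adipocyte score. With single libraries left out Mfap4 lay between -0.17 and 0.26, Mfap5 between -0.10 and 0.24, and Fmod between -0.37 and 0.13. The cause was not tested. The other 26 tested genes kept their sign when any 1 library was left out. The group sizes, hair content and, for Dlk1, depth limit these values.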
